A study of Mus musculus with 2 samples.

Results

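The genes described here are 8 of the 55357 gene rows counted: the ligands Csf1 and Csf2, and the receptors Csf1r, Csf2ra, Csf2rb, Csf3r, Flt3 and Kit. They were found by symbol, all 8 were present, and each had UMIs (unique molecular identifiers, 1 per captured transcript) in both libraries. Each library was a 10x Genomics 3-prime single-cell preparation of living leukocytes (CD45-positive, dye-negative) taken by flow sorting out of tumours grown from MC38, a transplantable mouse colon carcinoma line. The Lyz2-icre library came from mice with floxed Spp1 alleles and the Lyz2-icre transgene, labelled SPP1fl/fl-Lyz2-icre. The floxed control library came from SPP1fl/fl mice without that transgene, so both genotypes carried the floxed alleles. Cre driven from Lyz2 is active in macrophages, monocytes and neutrophils, so it is not limited to tumour macrophages. Age, the number of animals per library and the floxed exons were not given in the labels. With 1 library per genotype there was no replicate of a genotype, so no test was made and the ratios below compare libraries, not genotypes.

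Colony-stimulating factors are secreted or membrane-bound proteins that keep myeloid cells alive and push their precursors to divide and mature. CSF1 and IL-34 act through the tyrosine kinase CSF1R, which sustains monocytes and tissue macrophages. GM-CSF, the product of Csf2, binds an alpha chain (Csf2ra) that pairs with a signalling chain (Csf2rb) shared with the receptors for IL-3 and IL-5. G-CSF acts through CSF3R on neutrophils, FLT3 ligand through FLT3 on dendritic cell precursors and dendritic cells, and stem cell factor through KIT on mast cells and progenitors. In tumours CSF1R is best known as the receptor on which most tumour macrophages depend.

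After filtering, 13915 Lyz2-icre cells (median 6374 UMIs) and 8724 floxed control cells (median 9379.5 UMIs) remained, with 98256831 and 88047097 UMIs in all. Cells were put into classes from marker genes, and macrophages were cells in which C1qa, C1qb and C1qc together took at least 30 of 10000 UMIs. The macrophage class held 10017 Lyz2-icre and 5429 control cells, and 16 classes with at least 20 cells over both libraries are described. Levels are given as CPM, the usual scaled count: the UMIs of a gene summed over the cells of a class, for every 1000000 UMIs of those cells. They are compared only within a gene. Intervals at 95% cover counting error only, not the spread between cells or mice, and UMIs of 1 cell are not independent. Spp1, the floxed gene, stood at 2.68 CPM in Lyz2-icre macrophages and 652 CPM in control macrophages, and Lyz2 at 4061 and 11609 CPM, in the direction of the labels. The libraries had 43 cell barcodes in common. Both held cells read as female (7766 and 5201) and as male (2453 and 1798), so each library drew on more than 1 animal. Cells that met a second lineage's gate or carried macrophage C1q beside another lineage's markers, 913 and 731, were set aside as mixed. Cells that met both the T and the NK gate were counted as T cells. The fibroblast or tumour class, which a CD45 sort should remove, had 289 and 172 cells, and serves below as a class that should lack the receptors.

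**Figure D1:**
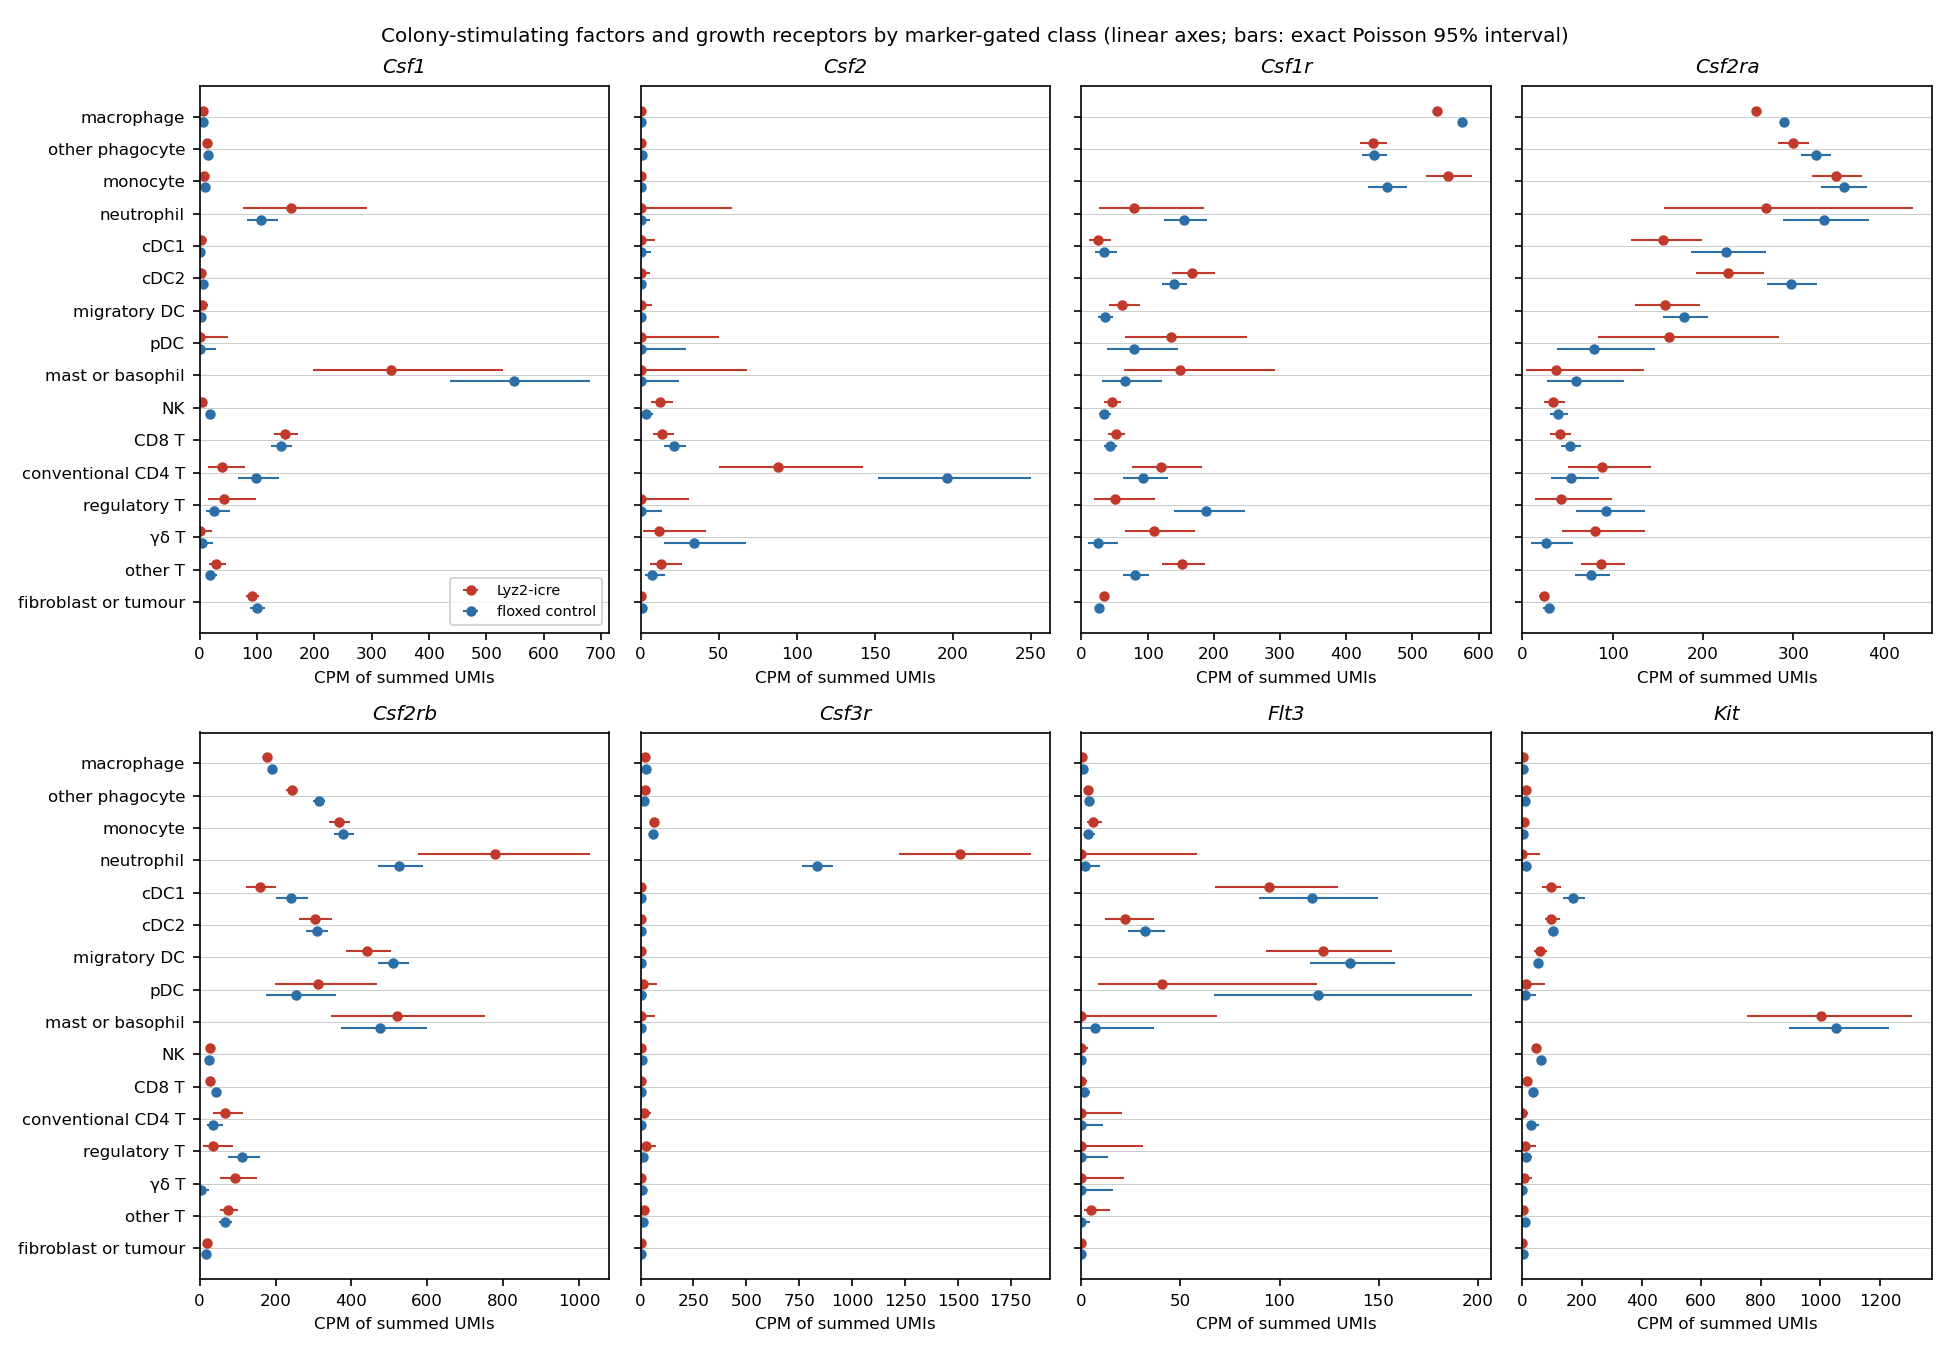
Level of each gene (CPM of summed UMIs, linear axis, its own scale per gene) in 16 marker-gated classes, with Lyz2-icre drawn above floxed control; bars are exact Poisson 95% intervals. Csf1r is highest in macrophages, monocytes and other phagocytes and Csf2ra extends to neutrophils and cDC2, while Csf3r, Flt3 and Kit each peak in 1 or a few small classes.

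Csf1 (ENSMUSG00000014599, chromosome 3, 107741048 to 107760469, minus strand, mm10) was highest in the mast or basophil class, neutrophils, CD8 T cells and fibroblast or tumour cells, and low in macrophages. CD8 T cells had 149 CPM in the Lyz2-icre library and 142 CPM in the control (199 and 247 UMIs), a ratio of 1.05 with an interval of 0.866 to 1.27 (1.23 in female and 0.820 in male cells). Fibroblast or tumour cells had 91.8 and 100.2 CPM, and neutrophils 159 and 107 CPM from 10 and 63 UMIs. The highest levels stood in the mast or basophil class, at 334 CPM (18 UMIs in 14 cells) and 549 CPM (83 UMIs in 38 cells), with intervals of 198 to 528 and 437 to 681. The mast or basophil intervals lay above those of CD8 T cells in both libraries. Macrophages had 5.87 and 5.81 CPM. A Csf1 UMI was found in 35.1% of Lyz2-icre and 44.2% of control CD8 T cells (median 3484 and 5235 UMIs), against 3.35% and 4.25% of macrophages (median 6781 and 9994 UMIs). With every cell thinned to 2000 UMIs the shares were 21.9% and 21.8% of CD8 T cells, against 1.31% and 1.12% of macrophages. The CD8 T share was thus nearly the same in both libraries at equal depth, and far above the macrophage share.

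Within the mast or basophil class, basophils, read from Mcpt8 or Prss34, had the higher Csf1 level in the control. The 6 control basophils held 48 Csf1 UMIs, or 3670 CPM, and the 31 control mast cells, read from 4 mast proteases, held 28 UMIs, or 207 CPM. In the Lyz2-icre library 3 basophils held 3 UMIs (402 CPM) and 10 mast cells 12 UMIs (269 CPM). One control basophil alone held 36 of the 83 Csf1 UMIs of the class, so the basophil level rests largely on that cell. The lower Csf1 level of this class in the Lyz2-icre library (ratio 0.609, 0.344 to 1.02) did not hold among cells read as female, where the ratio was 2.62 (18 and 15 UMIs). Most control UMIs of the class lay in cells whose sex could not be read.

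Among other lymphocytes, conventional CD4 T cells had 38.4 CPM of Csf1 in the Lyz2-icre library and 98.2 CPM in the control (7 and 33 UMIs), a ratio of 0.391 (0.146 to 0.898). Regulatory T cells had 42.4 and 25.8 CPM from 5 and 7 UMIs. NK cells had 3.502 and 18.4 CPM, from 4 and 31 UMIs, of which 21 in the control lay in 1 cell. γδ T cells held 0 and 1 Csf1 UMIs, so the strong level of CD8 T cells was not shared by all T cells. Dendritic cells of every kind were low, between 0 and 10 UMIs per class and library. Because macrophages were so numerous, they still held 29.3% of all Csf1 UMIs in the Lyz2-icre library and 21.1% in the control, beside 13.7% and 15.9% in CD8 T cells and 20.3% and 16.5% in fibroblast or tumour cells. Over all kept cells Csf1 stood at 14.8 and 17.6 CPM.

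**Figure D2:**
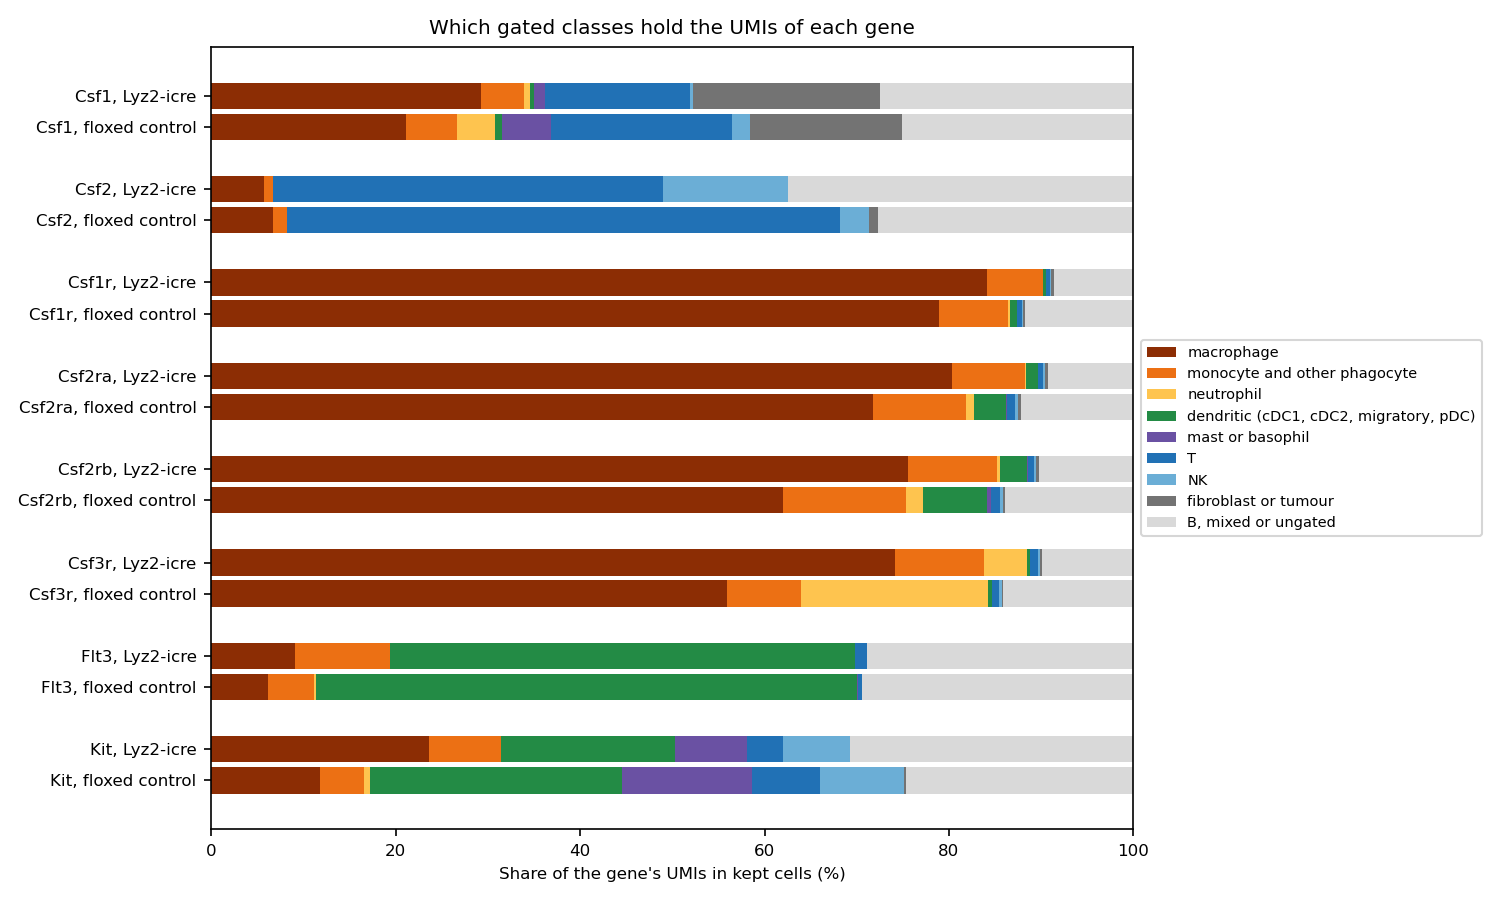
Share of each gene's UMIs (%, horizontal axis) held by groups of gated classes in kept cells, with the Lyz2-icre bar above the floxed control bar for each gene. Macrophages hold most Csf1r, Csf2ra, Csf2rb and Csf3r UMIs, dendritic classes most Flt3 UMIs that could be placed in a class, and T cells more Csf2 UMIs than any other group of classes drawn.

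Csf2 (ENSMUSG00000018916, chromosome 11, 54247271 to 54249667, minus strand) was rare, and its levels were highest in T and NK cells. Only 104 Csf2 UMIs were counted in the Lyz2-icre library and 195 in the control, or 1.06 and 2.21 CPM over all kept cells. Conventional CD4 T cells, meaning CD4 T cells without a Foxp3 UMI, had the highest level, at 87.8 CPM (16 UMIs in 4 of 46 cells) and 196 CPM (66 UMIs in 17 of 65 cells). The ratio was 0.447 (0.241 to 0.780). Macrophages, which outnumbered them by far, held 6 and 13 Csf2 UMIs, or 0.0829 and 0.230 CPM, so the CD4 level was not at that background. CD8 T cells had 13.5 and 21.3 CPM, with intervals of 7.98 to 21.3 and 14.98 to 29.3. γδ T cells had 11.5 and 34.2 CPM from 2 and 8 UMIs, and regulatory T cells held no Csf2 UMI in 24 and 43 cells. The count of 0 in regulatory T cells allows, from 3 counts, up to 25.5 and 11.1 CPM.

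The size of the Csf2 difference depended on the cells counted. In conventional CD4 T cells the ratio was 0.268 without the richest cell of each library, 0.348 when cells of any C1q share were counted and 0.666 (0.351 to 1.20) among female cells, where the interval includes 1. Male conventional CD4 T cells held 0 UMIs in 6 Lyz2-icre cells and 21 UMIs in 18 control cells. In CD8 T cells 1 control cell held 18 of 37 UMIs, and the ratio was 0.633 with all cells and 1.03 without the richest cell of each library. It was also above 1 among female cells (1.11) and male cells (2.65, from 6 and 3 UMIs). Over all T cells together Csf2 stood at 18.3 and 34.1 CPM (44 and 117 UMIs), a ratio of 0.535 (0.369 to 0.763). NK cells went the other way, with 12.3 CPM (14 UMIs in 7 of 235 cells) and 3.56 CPM (6 UMIs in 6 of 233 cells), a ratio of 3.44 (1.24 to 10.9). That NK difference was not seen in the unsupervised (Leiden) clusters named NK by their most common gate, where the ratio was 0.945 (17 and 19 UMIs). NK-gated cells made up 55.3% of 1 such cluster and 70.1% of the other, so other cells were counted as well. The mixed cells held 39 of the 104 and 51 of the 195 Csf2 UMIs, which no class could be given.

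The other ligands of the family had their own sources. Il34, the second ligand of CSF1R, stood at 83.3 and 84.9 CPM in fibroblast or tumour cells, and at 0.249 and 0.124 CPM in macrophages. Kitl, which encodes stem cell factor, was also highest there, at 43.4 and 76.7 CPM. Flt3l, the FLT3 ligand gene, was spread over lymphocytes, at 48.2 and 39.2 CPM in NK cells and 43.4 and 26.5 CPM in CD8 T cells, beside 5.96 and 5.76 CPM in macrophages. Csf3, which encodes G-CSF, stood at 24.2 and 36.4 CPM in other phagocytes, where the richest cells held 62 of 99 and 42 of 174 UMIs, and at 31.8 CPM (2 UMIs) and 51.1 CPM (30 UMIs) in neutrophils. Il3 had no UMI in the Lyz2-icre classes described and 2 UMIs in 1 control conventional CD4 T cell. Il5 had 130 UMIs in 3 of 46 Lyz2-icre conventional CD4 T cells, 128 of them in 1 cell, and none in 65 control cells.

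Csf1r (ENSMUSG00000024621, chromosome 18, 61100598 to 61132149, plus strand) was highest in macrophages, monocytes and other phagocytes. Macrophages had 537 CPM in the Lyz2-icre library and 575 CPM in the control, a ratio of 0.935 (0.921 to 0.949). Monocytes had 554 and 462 CPM, a ratio of 1.20 (1.10 to 1.31). The remaining phagocytes, with phagocyte markers and little C1q, had 440.3 and 441.9 CPM, a ratio of 0.996. In the Lyz2-icre library the monocyte and macrophage intervals (520 to 590 and 532 to 543 CPM) overlapped, while in the control macrophages stood above monocytes (568 to 581 against 433 to 491 CPM). A Csf1r UMI was seen in 88.2% and 94.2% of macrophages, and in 21.1% and 18.0% of fibroblast or tumour cells (median 9547 and 13126 UMIs). At 2000 UMIs per cell these were 64.3% and 66.9% of macrophages, against 5.43% and 2.37% of fibroblast or tumour cells.

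Below the phagocytes, cDC2 cells kept a clear Csf1r level of 166 and 139 CPM, seen in 30.3% and 28.6% of thinned cells. cDC1 cells had 24.3 and 33.9 CPM and migratory dendritic cells 62.0 and 35.2 CPM, beside 33.7 and 27.0 CPM in fibroblast or tumour cells. For migratory cells the interval lay above that of fibroblast or tumour cells in the Lyz2-icre library (42.1 to 88.0 against 27.7 to 40.7 CPM) and overlapped it in the control. NK cells (45.5 and 34.4 CPM) and CD8 T cells (51.6 and 42.6 CPM) were in the same low range. Neutrophils had 79.4 CPM from 5 UMIs and 155 CPM from 91 UMIs. Some small T cell classes showed more Csf1r in 1 library than the other, with 50.9 and 188 CPM in regulatory T cells and 110 and 25.6 CPM in γδ T cells. Csf2ra and Csf2rb had the same direction there, at 42.4 and 92.2 CPM and 34.0 and 111 CPM in regulatory T cells, and 80.8 and 25.6 CPM and 92.3 and 4.27 CPM in γδ T cells. The summed C1q genes also differed in that direction, at 552 and 763 CPM in regulatory T cells and 848 and 517 CPM in γδ T cells, beside 13146 and 12996 CPM in macrophages. The part of macrophage RNA in these values was not tested. Macrophages held 84.1% and 78.9% of all Csf1r UMIs. Over all kept cells the level was 470.3 and 467.0 CPM, a ratio of 1.007.

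The Csf1r ratio in macrophages had opposite directions in the sexes. Among female macrophages Csf1r stood at 539 and 618 CPM, a ratio of 0.872 (0.856 to 0.889), and among male macrophages at 536 and 507 CPM, a ratio of 1.06 (1.02 to 1.09). The Lyz2-icre levels of the sexes were thus nearly the same, and it was the control levels that differed. In monocytes both sexes were higher in the Lyz2-icre library, by 1.15 (1.02 to 1.30) and 1.24 (1.02 to 1.53). Sex here stands for separate animals as well, and the effects of sex and of animal cannot be told apart.

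Csf2ra and Csf2rb, the chains of the GM-CSF receptor, were broader than Csf1r and reached into granulocytes and dendritic cells. Csf2ra (ENSMUSG00000059326, chromosome 19, 61223957 to 61228429, minus strand) had 347 and 356 CPM in monocytes, 299.7 and 325 CPM in other phagocytes and 259 and 289.8 CPM in macrophages. Neutrophils had 269.9 CPM from 17 UMIs and 334 CPM from 196 UMIs. Among dendritic cells cDC2 led with 228 and 297 CPM, before migratory dendritic cells with 158 and 179 CPM and cDC1 with 155 and 226 CPM. Fibroblast or tumour cells had 24.0 and 29.0 CPM, and NK and CD8 T cells between 34.1 and 52.9 CPM. In thinned cells a Csf2ra UMI was found in 38.2% and 41.1% of macrophages and in 2.17% and 4.14% of fibroblast or tumour cells.

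Csf2ra was lower in the Lyz2-icre library by small steps in most of these classes. The ratio was 0.894 (0.875 to 0.913) in macrophages, 0.923 (0.856 to 0.996) in other phagocytes, 0.765 (0.630 to 0.925) in cDC2 and 0.689 (0.5004 to 0.941) in cDC1. In monocytes it was 0.976 (0.877 to 1.09) and in migratory dendritic cells 0.881 (0.671 to 1.15), both with intervals that include 1. Among macrophages whose sex could be read, Csf2ra stood at 247 and 314 CPM in male cells, against 269 and 275 CPM in female cells. Macrophages whose sex could not be read were not looked at apart, so the difference is not placed in 1 sex.

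Csf2rb (ENSMUSG00000071713, chromosome 15, 78325752 to 78353847, plus strand) had another order of classes. Neutrophils led with 778 CPM (575 to 1028) and 526 CPM (469 to 589), and next came the mast or basophil class with 520.1 and 476 CPM and migratory dendritic cells with 442 and 510.0 CPM. The intervals of these classes overlapped in the control. In the Lyz2-icre library the mast or basophil interval, from 28 UMIs, overlapped that of neutrophils and that of migratory dendritic cells. Monocytes had 368 and 379 CPM, cDC2 303 and 309 CPM, pDC 312 and 255 CPM, and macrophages only 179 and 191 CPM. So the chain that signals was lower in macrophages than in monocytes in both libraries. In thinned cells a UMI was found in 49.4% and 65.4% of migratory dendritic cells, 53.4% and 46.8% of monocytes, 27.6% and 29.7% of macrophages, and 2.90% and 1.78% of fibroblast or tumour cells. The Lyz2-icre over control ratio was 0.935 (0.911 to 0.959) in macrophages, 0.971 (0.875 to 1.08) in monocytes, 0.776 (0.716 to 0.842) in other phagocytes and 0.656 (0.479 to 0.891) in cDC1. The cDC1 ratio was 0.840 (0.673 to 1.05) when cells of any C1q share were counted, and 0.335 in male cells (4 and 39 UMIs). The neutrophil ratio was 1.48 (1.07 to 2.002), with 3.60 among female cells and 0.406 among male cells, from 9 and 2 Lyz2-icre UMIs. Among female macrophages the ratio was 1.07 and among male macrophages 0.759, so that its direction differed between the sexes.

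Mice carry a second, near-identical beta chain gene, Csf2rb2, which serves the IL-3 receptor and lies 20030 bases away on chromosome 15 (78282507 to 78305721, minus strand). Of the 90-base windows along the longest Csf2rb transcript 8.19% also occur in Csf2rb2, but none in its last 1000 bases, where 3-prime tags mostly fall. Csf2rb2 was highest in the mast or basophil class (446 and 370.4 CPM) and in pDC (271 and 350.3 CPM) and stood at 47.2 and 43.9 CPM in macrophages. Detecting the alpha chain in a thinned macrophage went with detecting the beta chain only slightly more often. Csf2rb was found in 29.8% and 33.6% of Csf2ra-positive macrophages, and in 26.2% and 26.9% of Csf2ra-negative ones.

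Csf3r (ENSMUSG00000028859, chromosome 4, 126024550 to 126044440, plus strand) was the most concentrated of the receptors in neutrophils, with 1508 CPM (1220 to 1844) in 56 Lyz2-icre cells and 833 CPM (761 to 910) in 178 control cells. A Csf3r UMI was found in 76.8% and 79.2% of them although their median depth was only 1098 and 2564 UMIs. Monocytes followed with 64.4 and 57.4 CPM, then macrophages with 20.9 and 23.9 CPM and other phagocytes with 20.05 and 14.4 CPM. Dendritic, NK and CD8 T classes were at or under 13.6 CPM. As with Csf1, numbers outweighed level, and macrophages held 74.1% and 55.9% of all Csf3r UMIs against 4.67% and 20.3% in neutrophils.

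The neutrophil ratio of 1.81 (1.44 to 2.26) for Csf3r was above 1 in all 9 alternatives, but its size moved with the method. It was 1.94 (1.48 to 2.50) with a stricter cell filter, 1.87 with no filter and 1.56 with a stricter gate. Female neutrophils gave 4.68 (2.49 to 8.14) from 14 Lyz2-icre UMIs, and male ones 3.15 (1.34 to 7.14) from 11. It was lower, at 1.23 (0.939 to 1.60) among cells of 1000 to 2500 UMIs, a window chosen after seeing the data, 1.39 as a mean of per-cell CPM and 1.12 (0.908 to 1.36) in the neutrophil Leiden cluster. Scaling by median of ratios, which shifts this class by 0.28 on the log2 scale, gave 1.49. No Lyz2-icre neutrophil reached the depth needed for thinning. Neutrophils were 0.402% of kept Lyz2-icre cells and 2.04% of kept control cells. In the control, thinned Csf3r-positive neutrophils had a Csf2rb UMI in 62.2% of cells, against 36.1% of Csf3r-negative ones.

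Promoter sequence is shown for 3 receptors with different cell ranges: Csf3r (neutrophils), Csf2ra (phagocytes, neutrophils and dendritic cells) and Kit (mast cells). Each runs from 250 bases before to 50 after a RefSeq start on the gene's own strand in GRCm38.p6, which is mm10, and 6 of the 8 genes had an entry. The RefSeq starts differ from the ends of the gene spans given here, which are from GENCODE. Capitals mark AGGAAG or its reverse complement CTTCCT, 1 form of the sequence that ETS factors such as PU.1 bind. Other forms were not searched for, so a window without the hexamer may still hold one.
Csf3r, chr4:126024409-126024708, plus strand: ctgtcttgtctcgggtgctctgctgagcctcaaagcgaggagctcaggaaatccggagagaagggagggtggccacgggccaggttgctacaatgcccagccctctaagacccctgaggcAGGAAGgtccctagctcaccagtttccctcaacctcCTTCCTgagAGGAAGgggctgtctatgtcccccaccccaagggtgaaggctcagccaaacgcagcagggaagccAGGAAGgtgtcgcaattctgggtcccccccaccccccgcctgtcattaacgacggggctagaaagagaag
Csf2ra, chr19:61228369-61228668, minus strand: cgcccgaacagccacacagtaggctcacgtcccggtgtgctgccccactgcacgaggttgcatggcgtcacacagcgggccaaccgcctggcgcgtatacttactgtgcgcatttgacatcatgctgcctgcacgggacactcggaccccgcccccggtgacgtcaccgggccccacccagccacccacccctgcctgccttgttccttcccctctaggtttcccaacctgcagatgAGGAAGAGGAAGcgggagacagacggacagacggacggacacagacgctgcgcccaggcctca
Kit, chr5:75574737-75575036, plus strand: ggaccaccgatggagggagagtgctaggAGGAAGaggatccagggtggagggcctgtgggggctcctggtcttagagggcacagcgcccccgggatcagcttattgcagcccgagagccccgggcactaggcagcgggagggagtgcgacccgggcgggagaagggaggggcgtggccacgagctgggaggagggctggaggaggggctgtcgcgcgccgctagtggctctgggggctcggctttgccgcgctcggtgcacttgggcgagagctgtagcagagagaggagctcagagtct
The hexamer occurred 4 times in the Csf3r window, 2 times in Csf2ra and 1 time in Kit, and not in the windows of Csf1, Csf2 or Flt3. Of all 32851 promoter windows of this length 35.4% hold it on either strand. AGATAA, 1 form of the sequence bound by factors of the GATA family, was searched for in the same way. It occurred 1 time, in Csf2, against 11.2% of all windows. These matches describe letters only.

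Flt3 (ENSMUSG00000042817, chromosome 5, 147330741 to 147400489, minus strand) was highest in dendritic cells. Migratory dendritic cells had 122 CPM (61 UMIs in 93 cells) and 136 CPM (158 UMIs in 139 cells), a ratio of 0.8996 (0.658 to 1.22). cDC1 cells had 94.7 and 117 CPM, with a ratio of 0.812 (0.530 to 1.23) and intervals that overlap those of migratory cells in both libraries. cDC2 cells were lower, at 22.0 and 31.9 CPM. pDC had 40.7 CPM from 3 UMIs and 119 CPM from 15 UMIs. Macrophages, at 0.290 and 0.532 CPM, and monocytes, at 5.60 and 3.24 CPM, had little. NK cells held no Flt3 UMI in either library, which from 3 counts allows up to 2.63 and 1.78 CPM. In thinned cells a Flt3 UMI was found in 18.4% and 22.1% of migratory cells, 10.5% and 25.7% of cDC1, and 0.0112% and 0.0788% of macrophages. Over all kept cells Flt3 was 0.430 of the control level (2.36 and 5.49 CPM). The ratio was below 1 in each dendritic class, with 0.689 (0.351 to 1.27) in cDC2 and 0.341 (0.0632 to 1.20) in pDC. All intervals of the dendritic classes included 1. In macrophages the ratio was 0.546 (0.297 to 0.986), from 21 and 30 UMIs, and in monocytes 1.73 (0.594 to 5.35). The dendritic classes themselves were a smaller part of the Lyz2-icre library, with 0.668% and 1.59% of kept cells for migratory cells and 0.654% and 1.63% for cDC2. The part of class sizes in the level over all kept cells was not tested.

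Kit (ENSMUSG00000005672, chromosome 5, 75574916 to 75656722, plus strand) peaked in mast cells. The mast or basophil class had 1003 CPM (54 UMIs in 14 cells) and 1052 CPM (159 UMIs in 38 cells), a ratio of 0.954 (0.687 to 1.31). Split by proteases, mast cells had 1098 and 1175 CPM, with a Kit UMI in 9 of 10 and 27 of 31 cells. Basophils held 5 UMIs, all in 1 of 3 cells, in the Lyz2-icre library and none in 6 control cells. In the control class all Kit UMIs thus lay in mast cells.

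Kit was also present well above the macrophage level of 2.27 and 2.36 CPM in dendritic and NK cells. cDC1 cells had 94.7 and 171 CPM, cDC2 97.3 and 102 CPM, migratory dendritic cells 58.0 and 53.2 CPM, and NK cells 44.7 and 61.2 CPM. CD8 T cells had 17.2 and 35.7 CPM, and conventional CD4 T cells 0 and 10 UMIs. In thinned cells a Kit UMI was found in 9.39% and 12.7% of NK cells and 13 of 89 and 28 of 140 cDC2 cells, against 0.537% and 0.512% of macrophages. The ratio was 0.553 (0.370 to 0.814) in cDC1 and 0.483 (0.285 to 0.790) in CD8 T cells. Neither held in both sexes, with 1.14 among male cDC1 (7 and 20 UMIs) and 1.38 among female CD8 T cells (14 and 15 UMIs). Among cDC2 cells, thinned Kit-positive cells had a Csf1r UMI in 15.4% (2 of 13) and 14.3% (4 of 28), against 32.9% and 32.1% of Kit-negative cells. These cells are too few to tell whether the genes keep apart.

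Within macrophages the receptors were not spread evenly over states. States were read from named genes, with a cell positive at 2 or more UMIs after thinning, in 8933 Lyz2-icre and 5076 control macrophages. Csf2rb was higher in macrophages positive for Il1b, an inflammatory cytokine, at 205 and 156 CPM for positive and negative cells of the Lyz2-icre library (ratio 1.31, 1.27 to 1.36) and 231 and 148 CPM in the control (1.56, 1.503 to 1.63). It was also higher in cells positive for the interferon-induced chemokines Cxcl9 and Cxcl10 (1.14 and 1.27 in the libraries). It was lower in cells positive for the chemokine Ccl8 (0.820 and 0.691), for the scavenger receptors Mrc1 and Cd163 (0.862 and 0.805), and for cycling genes (0.872 and 0.810).

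Csf1r ran the other way for Ccl8 and the scavenger receptors. It was higher in Ccl8-positive cells, at 574 and 529 CPM for positive and negative cells of the Lyz2-icre library (1.08, 1.05 to 1.12) and 706 and 564 CPM in the control (1.25, 1.20 to 1.31). It was higher in scavenger-positive cells (1.12 and 1.23) and lower in cells positive for Arg1, arginase (0.891 and 0.866). In cycling cells it was lower (0.958 and 0.916), as Csf2rb was. Csf2ra, like Csf2rb, was higher in Il1b-positive cells (1.17 and 1.19) and lower in Ccl8-positive cells (0.848 and 0.803). Csf3r, though low in macrophages, was higher in Ccl8-positive cells, at 28.6 and 19.6 CPM (1.46) and 40.5 and 22.7 CPM (1.79), and in the few cells positive for Chil3 (1.61 and 1.65). Kit was at 2.89 and 3.97 CPM in Cxcl9 or Cxcl10-positive macrophages, beside 1.62 and 1.52 CPM in negative ones. In thinned Lyz2-icre cells a Kit UMI was found in 0.738% of positive and 0.422% of negative cells. In thinned control cells it was as rare in positive as in negative cells (0.503% and 0.516%).

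**Figure D3:**
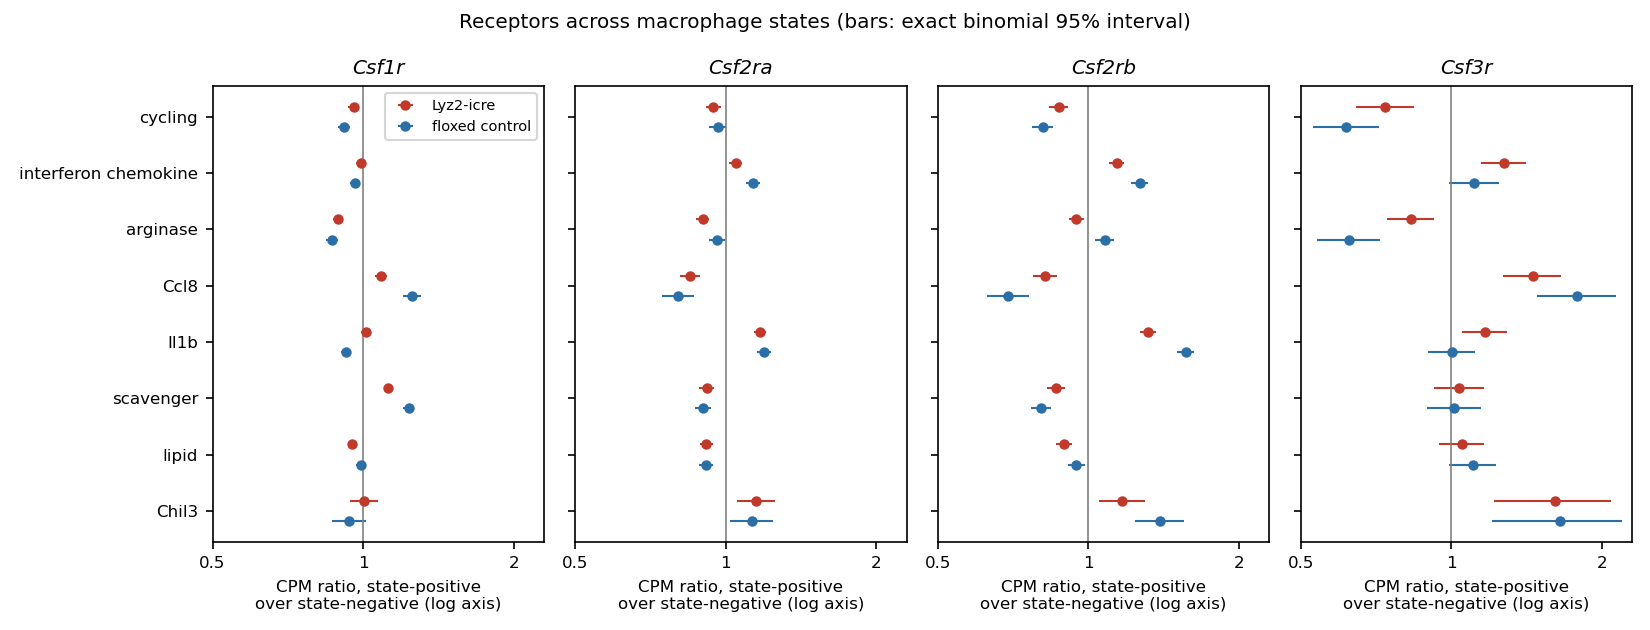
CPM ratio of state-positive over state-negative macrophages (log axis) for 4 receptors in 8 states, with Lyz2-icre drawn above floxed control and bars as exact binomial 95% intervals. Csf2rb lies above 1 and Csf1r at or near 1 for Il1b, and the order is turned round for Ccl8 and scavenger genes.

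Csf1r and Csf2rb also had opposite directions over the C1q content of macrophages. From the lowest to the middle and highest C1q range (30 to 100, 100 to 150 and 150 or more per 10000 UMIs) Csf1r stood at 471, 534 and 590.2 CPM in Lyz2-icre macrophages and at 472, 562 and 674 CPM in control macrophages. Csf2rb went down over the same ranges, at 203, 183 and 155 CPM in Lyz2-icre and 239, 197 and 145 CPM in control macrophages. C1q was itself used for the macrophage gate, so the lowest range is cut off by it. The states differed in share between libraries, with Ccl8-positive cells at 14.2% and 6.70% and arginase-positive cells at 38.8% and 22.4% of the macrophages read. Within Il1b-negative macrophages Csf2rb had a ratio of 1.06 (1.01 to 1.10) between libraries, and within Il1b-positive ones 0.887 (0.858 to 0.918).

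Set against all genes, the receptors in macrophages were among the many that differed little between libraries. A gene was called at a 1.5-fold difference in CPM if it reached 10 CPM and 30 UMIs in the higher library. Of 7900 genes so tested in macrophages, 0.582% were higher and 1.42% lower in the Lyz2-icre library. Of the 8 genes 4 passed the level filter there (Csf1r, Csf2ra, Csf2rb and Csf3r) and none was called. In other phagocytes 6 passed and none was called, against 2.94% of genes higher and 4.0% lower. In monocytes 4 passed and none was called, against 6.05% and 5.5%. Fibroblast or tumour cells (4 tested) and cDC2 (5 tested) also gave no call, against 4.13% higher and 6.13% lower, and 2.72% higher and 12.1% lower.

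Calls came in other classes, where the counts of these genes were often low and the level filter matters. A gene that reached 30 UMIs in 1 library only was admitted through that library, which favours a higher value there, and the larger control classes let in more such genes. This held for Csf1 and Csf2 in conventional CD4 T cells, Csf1r and Csf2rb in regulatory T cells, Csf1 in NK cells and in the mast or basophil class, Csf2 and Kit in CD8 T cells and Csf1r in neutrophils. All of them passed through the control and were lower in the Lyz2-icre library by at least 1.5-fold, so nothing is read from their number. The shares of all genes higher and lower in those classes came through the same filter, whose effect on them was not tested. They were 7.47% and 17.4% in conventional CD4 T cells, 4.08% and 20.2% in regulatory T cells, 2.31% and 8.01% in NK cells, and 10.5% and 24.5% in the mast or basophil class. In neutrophils, with 62990 UMIs in the Lyz2-icre and 586935 in the control class, they were 7.05% and 46.0%. In CD8 T cells they were 2.66% and 8.33%.

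With at least 30 UMIs in both libraries, Csf2rb was lower in CD8 T cells (36 and 77 UMIs). In cDC1 Csf2rb and Kit were lower of 4 genes tested, where 4.08% of genes were higher and 12.7% lower, and the Csf2rb call was lost when cells of any C1q share were counted. Csf3r was higher in neutrophils, and was not past 1.5-fold in the depth window or the Leiden cluster. Csf1r was called higher in migratory dendritic cells (of 4 tested, with 2.45% of genes higher and 12.5% lower) and in the remaining T cells (of 3 tested, with 5.04% higher and 8.36% lower). In the remaining T cells Csf1r stood at 152 and 80.3 CPM, beside 722 and 631 CPM of the summed C1q genes. The part of macrophage RNA in this difference was not tested. No gene of the 8 passed the filter in pDC, where 5.79% of genes were higher and 12.8% lower, or in γδ T cells, where 9.83% were higher and 17.9% lower.

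**Figure D4:**
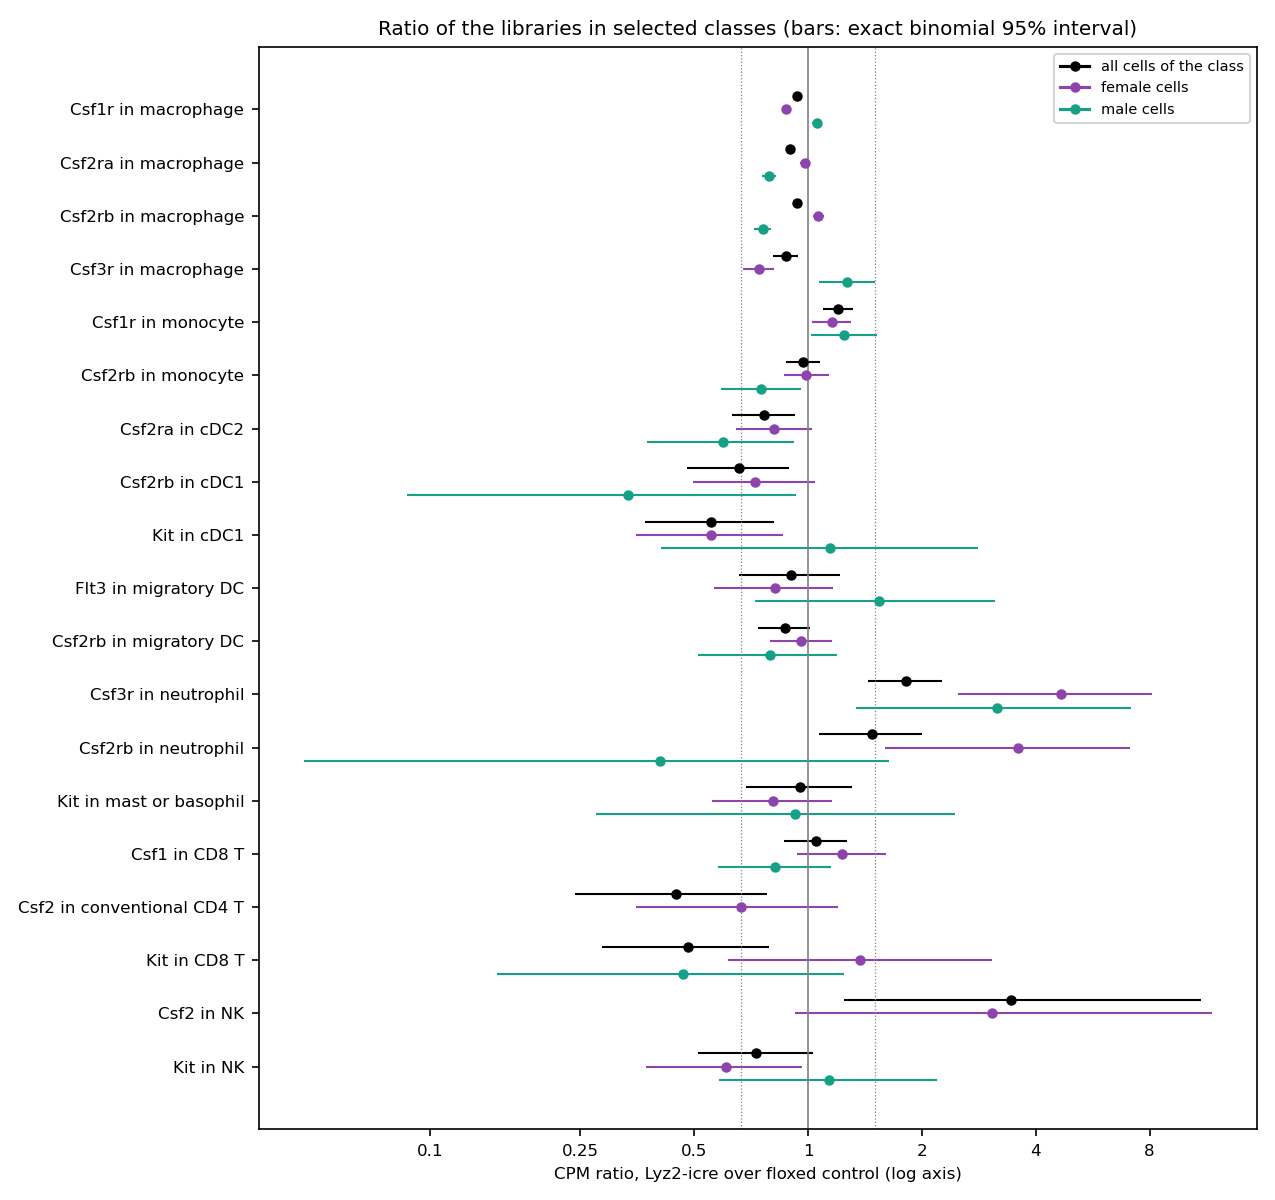
CPM ratio of Lyz2-icre over floxed control (log axis) for 19 gene and class pairs, for all cells of a class and for cells read as female or male with at least 10 UMIs, with exact binomial 95% intervals and dotted lines at 1.5-fold. Macrophage ratios lie close to 1 with narrow intervals but part by sex, and ratios of small classes have wide intervals.

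Of 39 further genes of these pathways, 30 passed the filter in macrophages, and none was higher or lower by 1.5-fold. Their median log2 ratio was -0.03, beside -0.02 over all genes tested. The highest ratios were those of Socs1, an inhibitor of cytokine receptor signalling (25.4 and 17.6 CPM, ratio 1.44, 1.33 to 1.56), and Dusp6, an ERK phosphatase (132 and 101 CPM, 1.31, 1.26 to 1.35). The lowest were those of the adaptor Grb2 (150.0 and 166 CPM, 0.904) and the Src-family kinase Lyn (244 and 269 CPM, 0.907). Transcripts of the transducers Jak2, Stat5a and Stat5b had ratios of 1.11, 1.001 and 0.980. Spi1, which encodes PU.1, stood at 383 and 404 CPM.

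Genes with the most similar pattern over the 16 classes were sought among 10667 genes, by the mean over libraries of Pearson's r of log2(CPM + 5), as a description. For Csf1r these were Fcgr1, the high-affinity IgG receptor (0.918), the protease gene Ctsc (0.912) and Clec4a2 (0.899). For Csf2ra they included Spi1 (0.905) and Gpr35 (0.896), and for Csf2rb they were Basp1 (0.905), the inhibitory receptor gene Pirb (0.888) and the taurine transporter gene Slc6a6 (0.874). Csf2 was most like Tnfsf11, which encodes RANKL (0.944), with 186 and 214 CPM of Tnfsf11 in conventional CD4 T cells, before Gm50008 (0.889) and Ntrk3 (0.887). Csf3r was most like Gm43660 (0.910), Scnn1a (0.906) and the tissue factor gene F3 (0.906). In neutrophils Gm43660 stood at 15.9 and 29.0 CPM and Scnn1a at 79.4 and 8.52 CPM. In the Lyz2-icre class 15.9 CPM is 1 UMI, so the likeness of Gm43660 and Scnn1a rests on few counts. Flt3 was most like Slc46a3 (0.858), Kynu (0.853) and Tbc1d8 (0.851). The likeness was weaker for Kit, with Gcsam (0.761), Ptger3 (0.758) and Bfsp2 (0.758), and for Csf1, with Kdm3a (0.752), Myo1d (0.721) and Wdtc1 (0.713).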

How the data were processed

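The UMI counts analysed are those the authors deposited, as a filtered gene by cell matrix for each of 2 libraries. They were made with Cell Ranger 8.0.1 per the file headers, and with bcl2fastq 5.0.1 on mm10 per the submitters' processing notes. The annotation release and the use of strand in counting were not given in the sources used here, and Csf1r, Csf2 and Flt3 overlap a gene on the opposite strand. A cell entered the analysis if it had 300 genes and 500 UMIs or more, with a mitochondrial share no higher than 15%, which left 13915 of 13944 for Lyz2-icre and 8724 of 9154 for the control. No doublet caller was run, and cells that met the gates of several lineages were set aside as mixed. The dendritic gates other than pDC were counted together as a lineage, with migratory cells taken before cDC1 and cDC1 before cDC2. A cell that met the T and NK gates was put with T cells. The monocyte and other phagocyte gates, monocyte first, were applied only to cells that met no other gate, so they set no cell aside. A class other than macrophages needed 2 to 5 of its markers, and its cells were under the macrophage C1q limit. Those numbers were set after marker counts had been seen. UMIs were summed per class and library and given as CPM, with exact Poisson and binomial intervals. Only the CPM ratio, its interval and the 1.5-fold call were run on simulated data, for macrophage sums drawn with counting error alone. Such data cannot show how they do in small classes or with UMIs clumped in single cells. Shares were repeated with each cell thinned to 2000 UMIs, leaving out 1723 and 611 shallower cells. With 1 library per genotype no p-value was computed. Genes were named because they belong to the 8 studied, to their listed ligands and pathway, or to the 3 most alike per gene, of which 1 gene is not reported here. The members and lists were chosen with earlier results of these data known. Python 3.11.15, scipy 1.17.1, pandas 2.3.3, scanpy 1.11.5 and leidenalg 0.10.2 were used.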

Additional observations from a re-analysis of the deposited data

Results flagged for a closer look

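In 5 gene and class pairs the ratio of Lyz2-icre to control CPM lay on opposite sides of 1 in cells read as female and as male, with both intervals clear of 1. The pairs were picked from 8 genes and 16 classes. How many of all genes do the same in these classes was not counted, so nothing is read from the number of pairs. The difference between the sexes was not tested, and sex and animal cannot be told apart. Csf1r in macrophages had a ratio of 0.872 in female cells and 1.06 in male cells. Csf1r in other phagocytes had 0.888 in female cells (396 and 338 cells) and 1.18 in male cells (156 and 113 cells). Csf2rb in macrophages had the opposite order, with 1.07 in female and 0.759 in male cells. Csf3r in macrophages had 0.741 in female cells, at 20.3 and 27.3 CPM, and 1.27 in male cells, at 20.96 and 16.5 CPM. Csf1 in other phagocytes had 1.74 in female cells, from 41 and 33 UMIs, and 0.348 in male cells, from 8 and 25 UMIs.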

How the results depend on the processing

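No paired analysis was possible because each genotype had 1 library. The Csf1r ratio in macrophages, 0.935, was 0.958 under median-of-ratios scaling, 0.914 as a mean of per-cell CPM, 0.911 after thinning, 0.872 in female and 1.06 in male cells. The Csf1 ratio there was 0.724 in male cells. Csf2ra in macrophages gave 0.916 under median-of-ratios scaling, 0.980 in female and 0.788 in male cells. Csf2rb gave 0.906 with Leiden clusters, 1.07 in female and 0.759 in male cells. Csf3r in neutrophils gave 1.39 per cell, 1.12 with Leiden clusters, 4.68 in female cells (5 and 55), 3.15 in male cells (7 and 6) and 1.23 between 1000 and 2500 UMIs. Thinning gave it no value. Flt3 in migratory dendritic cells gave 1.54 in male cells. Kit in the mast or basophil class gave 1.40 per cell and 0.657 with 1 more marker required. Csf2 in NK cells turned to 0.945 with Leiden clusters and had no value in male cells. Directions also turned for Csf2 in CD8 T cells (1.03 without the richest cells, 1.11 in female, 2.65 in male cells), Kit in CD8 T cells (1.38, female), Csf1 in the mast or basophil class (2.62, female), Kit in cDC1 (1.14, male), Csf2rb in neutrophils (0.406, male) and Csf1 in CD8 T cells (0.820, male). These settings for single pairs were added after seeing the data. Of 7900 genes in macrophages, 158 passed 1.5-fold and 34 passed 2-fold, and 5011 passed 1.5-fold with no filter on level. A UMI in at least 10% of cells was seen for 125 of 256 gene, class and library combinations, and for 73 after thinning, so low shares depend on depth.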
